A study of Sus scrofa with 6 samples.

Results

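Heart muscle genes, 10 in number, were followed in RNA from whole pig embryos: the ventricular myosin light chains MYL2 and MYL3, the atrial light chain MYL7, the cardiac myosin heavy chains MYH6 and MYH7, the thin filament troponins TNNT2 and TNNC1, the Z-disc protein ACTN2, and the calcium handling proteins PLN and RYR2. Each of the 10 genes was read from 1 transcript row, fixed by its Ensembl identifier, out of 20523 rows in the deposited table, and all 10 had enough reads to be among the 13957 rows tested. The QQ group held 3 Large White embryos homozygous for both quantitative trait nucleotides of VRTN, a gene tied to the number of thoracic vertebrae. They were set against 3 wild-type Large White embryos (WT, written qq by the submitters). All 6 embryos were taken at 17.5 to 18.0 days post coitum, 1 library was sequenced from each, and the labels name neither litter nor dam. In units of 1000000 uniquely mapped reads, library totals were 12.2 to 13.5 in QQ and 12.5 to 13.4 in WT embryos.

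A sarcomere is the contractile unit of striated muscle. Myosin heavy chains, each carrying an essential and a regulatory light chain, form its thick filaments, and the troponin complex on its thin actin filaments lets calcium switch contraction on. In heart muscle cells that calcium leaves the sarcoplasmic reticulum through the ryanodine receptor RYR2 and is pumped back by the calcium ATPase ATP2A2, which phospholamban (PLN) restrains. In mouse and human the early heart tube already expresses these genes, and the paired myosins (MYL7 and MYL2, MYH6 and MYH7) become divided between atria and ventricles as the chambers form. Several of the genes, among them MYL2, MYL3, MYH7 and TNNC1, are also used by slow skeletal muscle.

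The libraries were not alike. In a principal component analysis WT replicate 3 stood apart: it lay at -61.7 on the leading axis (57.7% of the variance), while WT replicates 1 and 2 lay at -9.12 and 1.00 and the QQ libraries at 10.9 to 29.99. WT replicate 3 also had lower values for long transcripts: rows of at least 8000 bp had a median deviation of -0.42 from their 6-library mean on the log2 scale there, against -0.11 to 0.28 in the remaining libraries. Values without WT replicate 3 are given beside many of the fold changes, but others also moved when it was left out. Heart muscle was present in the libraries by its markers. The heart transcription factor NKX2-5 had 229 to 407 reads and the atrial natriuretic peptide NPPA 311 to 389 reads per library, and skeletal muscle markers were measured too. MYOD1, a regulator of skeletal muscle fate, had 0 or 1 read in each library, MYOG 4 to 19, MYF5 12 to 39 and MYLPF 8 to 30 reads, while the sarcomere genes MYH3 and ACTA1 had 207 to 327 and 247 to 389 reads.

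Levels are given as RPKM, reads scaled by transcript length and by library total. MYL7 led with a mean of 317 RPKM over the 6 libraries, followed by TNNT2 at 278, TNNC1 at 162, MYL3 at 115 and MYH6 at 62.0 RPKM. ACTN2 stood at 17.1, PLN at 16.6, MYL2 at 11.4, RYR2 at 3.98 and MYH7 at 2.69 RPKM. The atrial light chain was thus the most abundant of the 10 and its ventricular counterpart among the lowest. The first 5 places were held in the same order by all 6 libraries, although MYL7 exceeded TNNT2 by a factor of only 1.06 to 1.24. ACTN2 exceeded PLN in 4 of 6 libraries and PLN exceeded MYL2 in 5 of 6, so these neighbours did not differ beyond the spread between embryos. Together the 10 rows took 0.0962%, 0.103% and 0.0889% of all reads in QQ replicates 1 to 3, against 0.0939%, 0.0956% and 0.122% in WT replicates 1 to 3. In whole embryos, fewer heart muscle cells and less RNA per cell cannot be told apart.

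**Figure D1:**
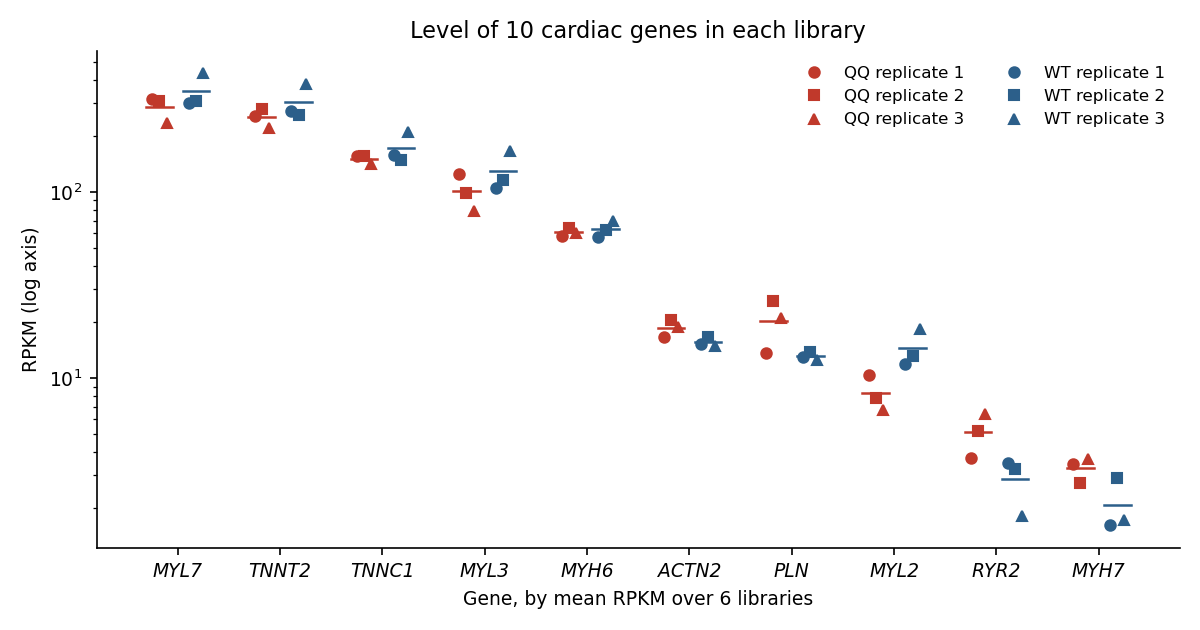
RPKM of each of the 10 genes (log axis) in 3 QQ (red, left) and 3 WT libraries (blue, right), genes ordered by mean level; points are libraries, short lines group means. MYL7 and TNNT2 are highest and MYH7 lowest, and QQ and WT points are apart for MYL2, ACTN2 and RYR2.

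The question put to these genes was whether their RNA differed between QQ and WT embryos. Of the 10, 6 had lower values in QQ embryos (MYL2, MYL3, MYL7, MYH6, TNNT2 and TNNC1) and 4 had higher values (MYH7, ACTN2, PLN and RYR2), where 50.3% of all tested rows were lower and 49.7% higher. None passed edgeR's quasi-likelihood test with Benjamini-Hochberg adjustment over all tested rows, and neither did any other row (percent called 0 in each direction). The smallest adjusted p among the 10 genes was 0.233, for MYL2 and RYR2. At an unadjusted p under 0.05, the count was 3 of 10 (MYL2 lower, PLN and RYR2 higher), against 20.3% of all tested rows, 11% higher and 9.3% lower. The RPKM of the groups did not overlap for 3 of 10 (MYL2 lower, ACTN2 and RYR2 higher), against 27.9% of all tested rows, 18.8% with QQ higher and 9.07% with QQ lower. The same 3 genes had separate groups in CPM (reads scaled by library total alone) after scaling with the TMM factors of edgeR, against 29.7% of all tested rows, 15.2% with QQ higher and 14.5% with QQ lower. These shares of members were close to those of all rows. DESeq2 called 0 of the 10, where it called 0.738% of all rows higher and 0.0573% lower. Limma with array weights, a setting added after seeing the data, gave WT replicate 3 a weight of 0.216 and WT replicate 1 a weight of 5.61. With it MYL2 was called lower and MYH7 and PLN higher, where 7.73% of all rows were called higher and 1.74% lower. The median log2 fold change of the 10 was -0.22, and -0.07 without WT replicate 3, where the median of all tested rows was -0.0028 with all 6 libraries.

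Among the light chains, MYL2, which regulates ventricular myosin, had the largest edgeR fold change of the 10 with all 6 libraries. It stood at 10.4, 7.84 and 6.73 RPKM in QQ replicates 1 to 3, against 11.8, 13.2 and 18.5 RPKM in WT replicates 1 to 3. All 3 QQ libraries lay below all 3 WT libraries, with 55 to 94 reads in QQ and 99 to 166 reads in WT. The edgeR log2 fold change was -0.89 ± 0.26 (SE; unadjusted p = 0.00779, adjusted p = 0.233). Without WT replicate 3 it was -0.64 (unadjusted p = 0.0205).

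MYL3, the essential light chain of ventricular and slow muscle myosin, stood at 125, 98.9 and 79.4 RPKM in QQ libraries, against 106, 116 and 166 RPKM in WT libraries. MYL7, the regulatory light chain of atrial myosin, stood at 317, 309.6 and 234 RPKM in QQ libraries, against 300.02, 309 and 434 RPKM in WT libraries. For both, QQ replicate 3 was lowest and WT replicate 3 highest. Among the other 4 libraries, both WT values lay between the QQ values for MYL3, and both QQ values lay slightly above both WT values for MYL7. The log2 fold changes of MYL3 and MYL7 were -0.45 ± 0.23 and -0.38 ± 0.19 (adjusted p = 0.279 each), and only -0.19 and -0.15 without WT replicate 3.

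The ratio of the atrial to the ventricular regulatory light chain is a value within each library, untouched by scaling between libraries, and the 2 rows are of similar length (715 bp for MYL7 and 669 bp for MYL2). MYL7 exceeded MYL2 by a factor of 30.4, 39.5 and 34.8 in QQ replicates 1 to 3, against 25.3, 23.5 and 23.5 in WT replicates 1 to 3. All QQ ratios lay above all WT ratios. MYL2, with 55 to 166 reads per library, already had separate groups by itself. How many other pairs of rows give separate ratios was not counted. The mean log2 ratio was 5.12 ± 0.19 in QQ and 4.59 ± 0.06 in WT embryos (SD, n = 3 each), a difference of 0.53. The exact two-sided permutation test gave p = 0.1, the smallest that 3 against 3 libraries allow. Leaving out 1 library at a time kept the difference between 0.43 and 0.62, and it was 0.51 without WT replicate 3.

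**Figure D2:**
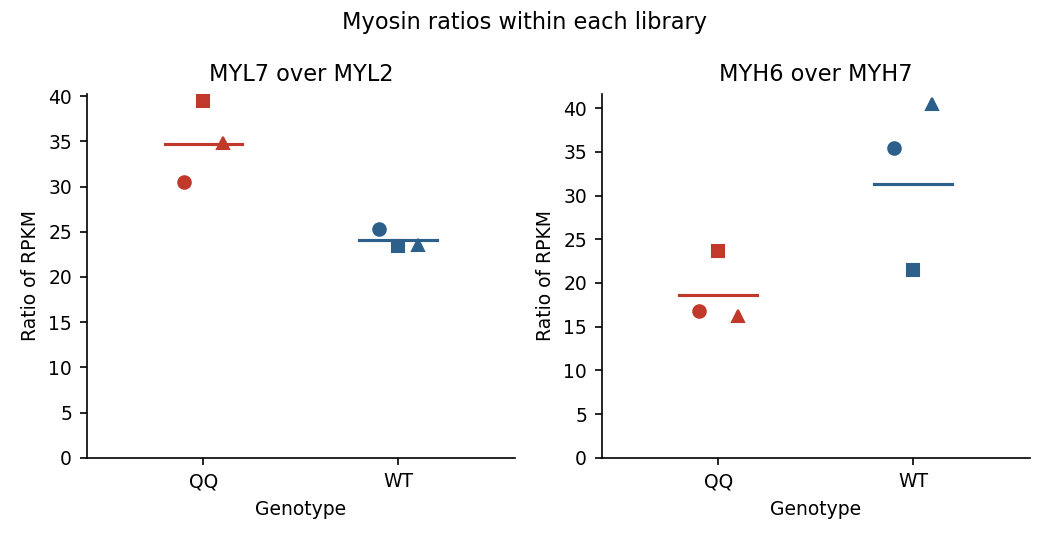
Ratio of RPKM within each library for MYL7 over MYL2 (left) and MYH6 over MYH7 (right), with QQ libraries in red and WT libraries in blue; points are libraries, lines geometric means. The MYL7 over MYL2 ratios of QQ libraries (30.4 to 39.5) lie above those of WT libraries (23.5 to 25.3), while the MYH6 over MYH7 ratios overlap.

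The myosin heavy chains, the motor proteins of the thick filament, were represented by fragments of their genes. The MYH6 row has 3410 bp, of which 64.2 to 64.5% was covered in every library although each held at least 2440 reads, so the rest of it carried no uniquely mapped read. The MYH7 row has 643 bp, of which 11.04 to 22.4% was covered. MYH6 and MYH7 are neighbouring genes of very similar sequence. Reads that match both would be left out of a count of unique reads, so the level of either is uncertain. The cause of the uncovered stretches was not tested. Long rows described as MYH7, of 5994 and 6027 bp, held only 1 to 2 and 3 to 11 reads per library.

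MYH6, the alpha or fast cardiac heavy chain, stood at 58.2, 64.2 and 59.9 RPKM in QQ libraries, against 57.3, 62.4 and 70.2 RPKM in WT libraries. The groups overlapped, and the log2 fold change was -0.16 ± 0.12 (adjusted p = 0.432), and -0.05 without WT replicate 3. A second MYH6 row, of 1886 bp, pointed the other way, with 63.9, 83.8 and 74.3 RPKM in QQ libraries, against 61.8, 66.6 and 50.2 RPKM in WT libraries and a log2 fold change of 0.22 ± 0.12 (adjusted p = 0.320). Without WT replicate 3 it was 0.13. WT replicate 3 was the highest library for the first row and the lowest for the second. The first row had 1.65, 1.39 and 1.46 reads for each read of the second in QQ libraries, against 1.68, 1.70 and 2.53 in WT libraries, and the 2 rows gave fold changes of opposite sign.

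MYH7, the beta or slow heavy chain, stood at 3.46, 2.72 and 3.69 RPKM in QQ libraries, against 1.62, 2.91 and 1.73 RPKM in WT libraries. It rested on 22 to 30 reads in QQ and 13 to 24 reads in WT libraries, and WT replicate 2 lay within the QQ range. The log2 fold change was 0.56 ± 0.31 (adjusted p = 0.313). The ratio of MYH6 to MYH7 was 16.8, 23.6 and 16.2 in QQ libraries, against 35.4, 21.5 and 40.5 in WT libraries, a difference of -0.75 in log2 (exact two-sided permutation test, p = 0.2). With the reads of all rows of each gene added up the difference was -0.57 (p = 0.2, exact). The ratios of the groups overlapped, and 3 against 3 libraries cannot give a p below 0.1.

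The troponins behaved like MYL3 and MYL7. TNNT2, which anchors the troponin complex to tropomyosin, stood at 257, 281 and 220.2 RPKM in QQ libraries, against 274, 258 and 379 RPKM in WT libraries. TNNC1, the calcium sensor of the complex in heart and slow muscle, stood at 156, 156 and 142 RPKM in QQ libraries, against 158, 149 and 210.4 RPKM in WT libraries. In both genes WT replicate 3 lay above all other libraries and WT replicates 1 and 2 lay within the QQ range, or less than 2 RPKM above it for TNNC1 in WT replicate 1. The log2 fold changes were -0.37 ± 0.18 for TNNT2 (adjusted p = 0.262) and -0.29 ± 0.16 for TNNC1 (adjusted p = 0.308), and -0.14 and -0.09 without WT replicate 3. The TNNT2 row was named by its KEGG match to cardiac troponin T, while its deposited best protein match was ladinin-1 of the tree shrew.

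ACTN2, alpha-actinin-2, which crosslinks actin filaments at the Z-disc, stood at 16.7, 20.6 and 18.7 RPKM in QQ libraries, against 15.2, 16.6 and 14.9 RPKM in WT libraries. The groups were apart, but QQ replicate 1 and WT replicate 2 differed by little. The log2 fold change was 0.16 ± 0.11 (adjusted p = 0.369), and 0.07 with each library's trend with transcript length removed.

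PLN, the brake on the calcium pump, stood at 13.6, 25.9 and 20.98 RPKM in QQ libraries, against 12.98, 13.8 and 12.5 RPKM in WT libraries. QQ replicates 2 and 3 lay above all WT libraries, and QQ replicate 1 lay within the WT range, which was narrow. The log2 fold change was 0.52 ± 0.22 (unadjusted p = 0.0399, adjusted p = 0.235). It was 0.51 without WT replicate 3, 0.53 with the length trend removed and 0.32 without QQ replicate 2. At 734 bp this row is as short as those of the light chains, which had lower values in QQ embryos. The row was named by a short KEGG match to phospholamban and has no protein match in the table.

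RYR2, the calcium release channel, stood at 3.72, 5.17 and 6.41 RPKM in QQ libraries, against 3.51, 3.24 and 1.81 RPKM in WT libraries. All QQ libraries lay above all WT libraries, though QQ replicate 1 and WT replicate 1 were close. Reads numbered 699 to 1091 in QQ and 340 to 611 in WT libraries, and covered 88.8 to 96.1% of the transcript in QQ and 53.6 to 81.3% in WT libraries. The log2 fold change was 0.74 ± 0.24 (unadjusted p = 0.0122, adjusted p = 0.233), and 0.52 without WT replicate 3. RYR2 stood above RYR1, the skeletal muscle form, which had a mean of 0.178 RPKM in QQ and 0.184 RPKM in WT embryos. A RYR3 row of 419 bp had 0 or 1 read in each library, too few to judge its level.

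The values were also set beside transcript length. The RYR2 row, of 13935 bp, is the longest of the 10, and of the 187 tested rows of at least 8000 bp 84.5% had higher values in QQ (median 0.34, and 0.21 without WT replicate 3). With the length trend of each library removed, the log2 fold change of RYR2 was 0.37 (unadjusted p = 0.0422), a setting added after seeing the data. Of the 2080 tested rows of 500 to 1000 bp, where MYL2, MYL3, MYL7, MYH7, TNNT2 and PLN lie, 51.8% had lower values, with a median of -0.02. Removing the length trend left these 6 genes between -0.90 for MYL2 and 0.56 for MYH7, close to their values before. The part of transcript length in these differences was not tested further.

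**Figure D3:**
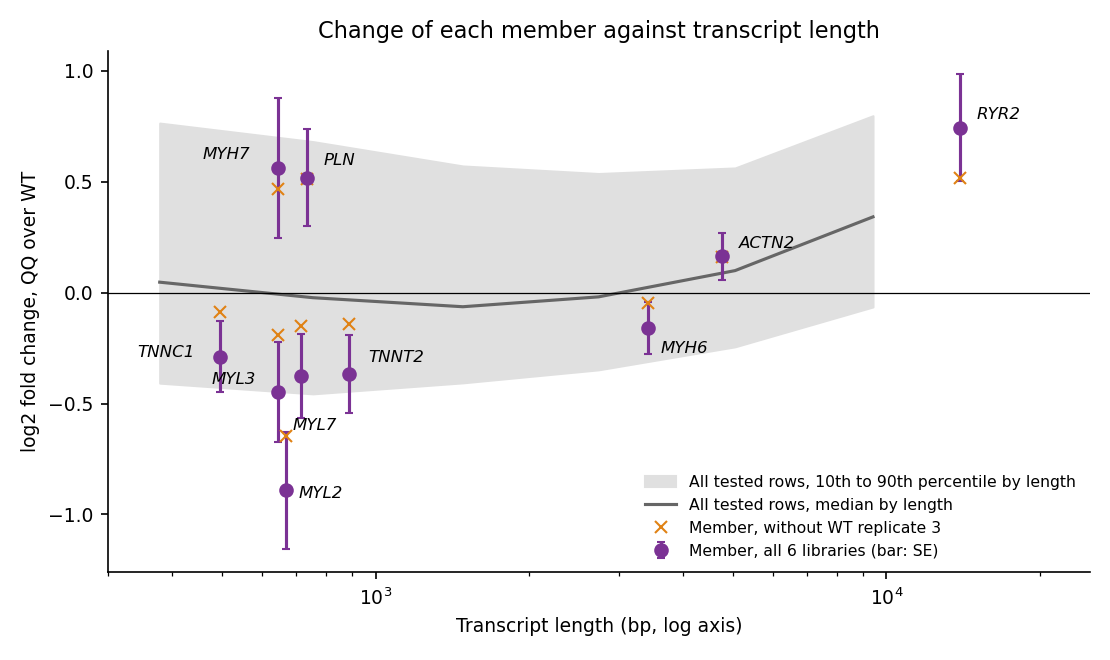
Log2 fold change (QQ over WT, edgeR) of each gene against transcript length (bp, log axis); purple points with SE bars use all 6 libraries, orange crosses leave out WT replicate 3, and the grey line and band give the median and the 10th to 90th percentile of all tested rows by length. MYL2 lies at -0.89 and PLN at 0.52 among rows of similar length, and RYR2 at 0.74 where long rows are mostly above 0.

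Most of the genes had their extremes in the same embryos. MYL2, MYL3, MYL7, TNNT2, TNNC1 and MYH6 were all highest in WT replicate 3 and lowest in QQ replicate 3 in TMM-scaled CPM. RYR2 did the reverse, with a deviation from its 6-library mean of -0.92 in WT replicate 3 and 0.72 in QQ replicate 3 (log2). PLN and ACTN2 followed neither order: they were highest in QQ replicate 2 (0.60 and 0.19) and lowest in WT replicate 1 (-0.27 and -0.14). Over all tested rows, WT replicate 3 and QQ replicate 3 also lay at opposite ends of the leading principal axis (-61.7 and 29.99). How many of all tested rows have their extremes in these libraries was not counted. Summed over the 10 genes, the level was 961, 972 and 792 RPKM in QQ replicates 1 to 3, against 939.7, 944 and 1309 RPKM in WT replicates 1 to 3. The log2 ratio of the group means was -0.23, and -0.05 without WT replicate 3. The mean standardised profile of the 10 averages genes that varied in opposite directions, such as MYL2 and RYR2, so it is the profile of no single gene. The rows outside the 10 that followed this mean most closely were TMEM5, MOSPD1, LIPT2, MRPS31 and CDH11 (Pearson's r between 0.966 and 0.988 over 6 libraries from 2 genotypes, a description only). Over 6306 rows searched, 53 had an r above 0.9.

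**Figure D4:**
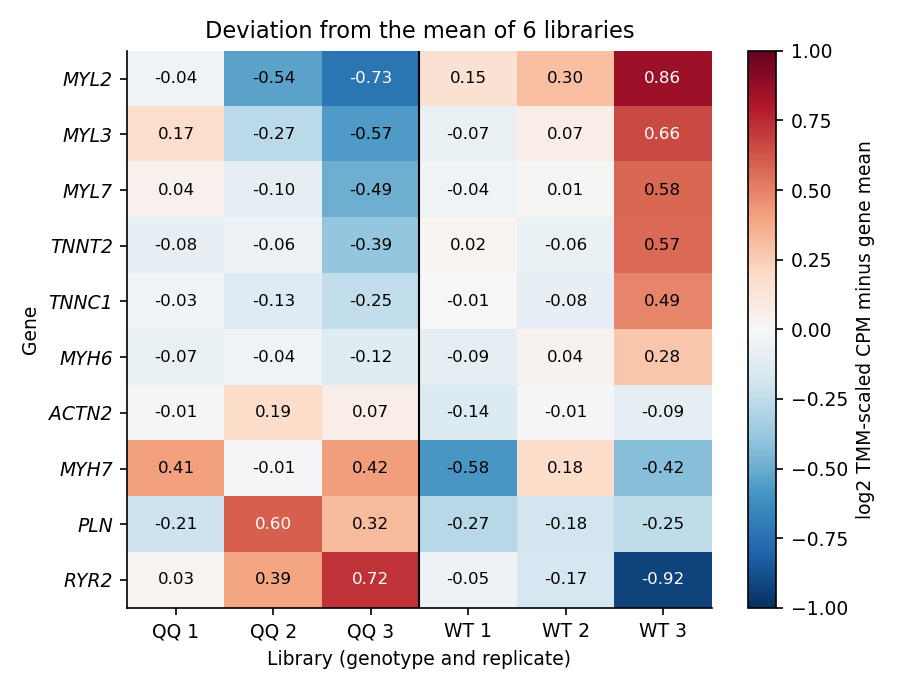
Deviation of each gene from its own mean over 6 libraries (log2 TMM-scaled CPM), QQ libraries left of the line and WT libraries right of it; red is above and blue below the mean. In all, 6 genes are highest in WT replicate 3, where RYR2 is lowest at -0.92.

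The wider heart muscle programme was described with lists that leave the 10 genes out. Of 20 tested genes of the sarcomere and its associated proteins, 13 had lower and 7 higher values in QQ embryos; their median was -0.16 on the log2 scale, and 0.0055 without WT replicate 3. None passed edgeR. CSRP3, a Z-disc associated LIM protein, stood at 10.7, 11.5 and 9.46 RPKM in QQ libraries, against 13.9, 12.6 and 15.8 RPKM in WT libraries (log2 fold change -0.52 ± 0.18, adjusted p = 0.233). The intermediate filament gene DES was lower too, at 66.3 ± 9.31 RPKM in QQ and 84.5 ± 7.23 RPKM in WT embryos (SD, n = 3 each). A fragment of TTN, the giant spring protein, had 77, 130 and 104 reads in QQ libraries, against 26, 54 and 7 reads in WT libraries (log2 fold change 1.76 ± 0.51, and 1.30 without WT replicate 3). Its edgeR adjusted p was 0.233, and its DESeq2 adjusted p was 0.0440. The groups did not overlap for these 3 genes, which were named for the smallest unadjusted p of the list. Of all tested rows, 27.9% had groups that did not overlap in RPKM.

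Calcium handling genes were mixed. Higher values were seen for 7 and lower values for 8 of the 15 tested; the median was -0.01 (log2), but -0.15 under quantile normalization and -0.13 with the length trend removed, and none passed edgeR. A fragment of ATP2A2, the pump that PLN restrains, stood at 55.6, 68.2 and 75.7 RPKM in QQ libraries, against 49.2, 51.4 and 33.6 RPKM in WT libraries (log2 fold change 0.48 ± 0.17, adjusted p = 0.233). CAMK2D, a calmodulin-dependent kinase that phosphorylates PLN and RYR2, had a log2 fold change of 0.51 ± 0.23, and the calcium channel gene ITPR1 of 0.93 ± 0.32. All 3 had separate groups, but they were named for the smallest unadjusted p of the list. In RPKM, groups did not overlap for 27.9% of all tested rows. The 3 genes were lowest in WT replicate 3, and without it their log2 fold changes were 0.33, 0.27 and 0.60. ATP2A2, CAMK2D and ITPR1 are expressed in many tissues besides the heart.

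Of 15 tested heart transcription factors 14 had higher values in QQ (median 0.18 on the log2 scale, and 0.04 under quantile normalization), and none passed edgeR. TBX20, a T-box factor of the early heart, stood at 55.2, 59.9 and 72.7 RPKM in QQ libraries, against 36.8, 50.6 and 17.7 RPKM in WT libraries (log2 fold change 0.75 ± 0.29, adjusted p = 0.233). GATA4 stood at 23.4, 30.01 and 40.8 RPKM in QQ libraries, against 21.9, 26.6 and 18.97 RPKM in WT libraries, and HAND2 at 104, 98.9 and 104 RPKM, against 116, 114 and 112 RPKM. Without WT replicate 3 the log2 fold changes of TBX20, GATA4 and HAND2 were 0.44, 0.30 and -0.24. In the list of heart hormones and muscle metabolism 5 of 7 tested genes had lower values (median -0.22, and 0.02 without WT replicate 3), among them FABP3, a fatty acid binding protein whose row is described as heart-like (-0.49 ± 0.17), COX6A2, a muscle form of a cytochrome c oxidase subunit (-0.54 ± 0.19), and ENO3, muscle enolase (-0.35 ± 0.21, and -0.17 without WT replicate 3). No gene of this list passed edgeR.

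Markers of other tissues that share sarcomere genes or lie in and around the heart were measured beside these values. The 15 skeletal muscle genes with a row summed to 30.5 to 39.7 RPKM in QQ and 33.8 to 41.2 RPKM in WT libraries, and 7 of 10 tested had lower values, led by MYOG (-0.75 ± 0.50), TNNC2 (-0.59 ± 0.34) and MYMK (-0.85 ± 0.49). TNNC2 and MYMK had only 7 to 16 and 3 to 16 reads per library. The 6 smooth muscle genes summed to 277 to 326 RPKM in QQ and 294 to 373 RPKM in WT libraries, and all 6 had lower values, with log2 fold changes of -0.36 ± 0.16 for MYL9, -0.17 ± 0.12 for SMTN and -0.23 ± 0.21 for CNN1. Without WT replicate 3 these were -0.21, -0.18 and -0.12. The 11 endothelial genes summed to 77.6 to 83.3 RPKM in QQ and 75.1 to 75.5 RPKM in WT libraries. These sums lack TMM scaling, and on log2(RPKM + 0.5) the median of all tested rows was itself 0.08 higher in QQ. Of 9 tested endothelial genes, 7 had higher values (median 0.04, but -0.07 under quantile normalization), with KDR at 0.74 ± 0.33, TEK at 0.78 ± 0.45 and FLT1 at 0.18 ± 0.17. Reads per library numbered only 14 to 51 for KDR and 3 to 16 for TEK, against 405 to 659 for FLT1. PECAM1 and EGFL7, with 341 to 515 and 984 to 1367 reads, lay at 0.016 and -0.13. Without WT replicate 3 the log2 fold changes of KDR, TEK and FLT1 were 0.47, 0.40 and 0.025. The 14 erythroid genes summed to 297 to 3236 RPKM in QQ and 2173 to 7729 RPKM in WT libraries, and all 12 tested had lower values, with HBB at -1.61 ± 0.71, GATA1 at -1.09 ± 0.53 and HBE1, whose row also matches another globin, at -1.08 ± 0.74. HBE1 stood at 2353, 226 and 2465 RPKM in QQ replicates 1 to 3, against 6169, 1693 and 2323 RPKM in WT replicates 1 to 3. Its groups overlapped, with QQ replicate 2 lowest, WT replicate 1 highest and QQ replicate 3 above WT replicates 2 and 3. HBB had only 0 to 28 reads per library. For the tested skeletal muscle genes the median was -0.35 (log2), and -0.17 without WT replicate 3. For the tested erythroid genes it was -0.67, and -0.91 without that library. No gene of these 4 lists passed edgeR. The part of these tissues in the values of the 10 cardiac genes was not tested.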

How the data were processed

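Total RNA of 6 whole embryos was made into TruSeq libraries, per the labels' protocols. The submitters' processing notes name the build Sscrofa10.2. No aligner, counting program or strand setting is named there or in the labels. Per the file headers the table holds, for each transcript, the deposited count of uniquely mapped reads, the percent of the transcript covered, and RPKM. Counts were whole numbers adding up to the header totals, and the deposited RPKM follows from count, length and total. Their number limits precision, and p-values measure only the spread between these 6 embryos.

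edgeR 4.0.16 (R 4.3.3) was run on the counts of all rows with TMM factors, filterByExpr (count 10, total 15), no covariate and a Benjamini-Hochberg threshold of 0.05. SE is the size of the log2 fold change divided by the root of F. Alternatives used DESeq2 1.42.0 and limma 3.58.1 on log2(RPKM + 0.5). The tests were checked on simulated counts with the same dispersion (spread between libraries) for every row, no outlying library and no length trend. That check therefore does not cover an outlying library or a length trend, which these data have. Length trends were removed with loess (span 0.4).

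Symbols of rows outside the 10 genes came from the deposited protein and KEGG matches through Sscrofa11.1 gene tables, or from the deposited descriptions (39 list genes); 109 of 121 list genes had a row, and for genes with several the row with most reads was used. The 10 genes, the lists and the tests were chosen with earlier results of these data known. From each list the text names the 3 genes with the smallest unadjusted p and defining markers with fewer than 10 reads in all. NKX2-5, NPPA, MYF5, MYLPF, MYH3, ACTA1, RYR1 and RYR3 were added as marker levels after their values were seen. The 5 rows most alike needed a symbol and a mean of at least 1 RPKM. No library pair agreed within sampling noise (chi-square over degrees of freedom at least 8.04).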

Additional observations from a re-analysis of the deposited data

How the results depend on the processing

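The log2 fold changes of the 10 genes were recomputed under 18 alternatives each, and 179 of the 180 values kept their direction. The exception was MYH6, at 0.069 with limma and array weights, which weighted WT replicate 3 at 0.216 and WT replicate 1 at 5.61. That setting, chosen after seeing the data like the removal of the length trend, called 3 of the 10 genes (MYL2, MYH7 and PLN), 6 genes of the other lists, and 1079 rows higher and 243 lower. DESeq2 called 103 rows higher and 8 lower, and 1 list gene, TTN. The remaining settings with all 6 libraries, a threshold of 0.1 among them, called 0 rows. Leaving out 1 library at a time gave 0 to 1 rows called higher (1 without QQ replicate 1 and 1 without WT replicate 3) and 0 lower, and the log2 ratio of the summed level of the 10 genes ranged between -0.31 and -0.05. Without QQ replicate 3 the log2 fold changes of MYL3 and MYL7 were -0.29 and -0.24, and without WT replicate 2 that of MYH7 was 0.86. Under quantile normalization MYL7, TNNT2, TNNC1 and MYH6 lay at -0.13, -0.14, -0.09 and -0.04. The cause of these shifts was not tested. Deviations of same-numbered QQ and WT libraries correlated at r = -0.191, 0.213 and -0.0558 for replicates 1 to 3. The highest r of each QQ replicate with a differently numbered WT library was 0.221, 0.00894 and 0.184. With 3 libraries per group these values cannot decide whether the numbers pair the libraries. With the replicate number as a block edgeR called 0 rows, MYL2 lay at -0.88 and RYR2 at 0.76. MYH7, with 133 reads in all, and MYL2, with 593, are the members whose depth limits precision most.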
